A study of Mus musculus with 2 samples.

Results

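Lrp2, Crhbp, Oc90, Vmo1 and Dpp10 are 5 of the 27998 genes in 2 single-cell RNA-seq libraries of the mouse cochlea. They were chosen by their UMI counts in earlier results of these same data, which placed them together in a group of non-sensory epithelial cells, so their levels and their overlap are given here as descriptions, without tests. The cochleae came from wild-type C57BL/6 mice at postnatal day 20, pooled from 5 to 8 animals and dissociated with trypsin. Both libraries carry the same description and form 1 group with no treatment, and nothing says that they came from separate mice. Spread between them may therefore be technical.

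The members were read as raw UMIs, counts of unique molecular identifiers that each stand for 1 captured RNA molecule, in cell barcodes. A barcode was kept where 300 genes or more were detected and mitochondrial genes gave no more than 20% of its UMIs. This kept 1331 of 1610 barcodes in library 1, with a median of 10601 UMIs, and 644 of 720 in library 2, with a median of 6116 UMIs. The libraries shared 2 barcodes, and neither was in the class that held most of the members' UMIs. Clusters were built without the members, and a cluster was given a cell type name, followed by "-like", only from a list of marker genes. Levels are CPM, a gene's counts per 1000000 UMIs of a class in each library, without further scaling unless said. Intervals are exact 95% intervals and cover counting error only.

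Reissner's membrane is the thin partition between the scala media, which holds the potassium-rich endolymph, and the scala vestibuli. Its endolymph-facing cells are an epithelium that takes up sodium. Lrp2 encodes megalin, a very large endocytic receptor of the low density lipoprotein receptor family, which in the ear is known from Reissner's membrane and from the marginal cells of the stria vascularis. Crhbp encodes a secreted protein that binds corticotropin-releasing hormone and urocortin. Oc90 encodes otoconin-90, a main matrix protein of the otoconia of the vestibular organs, with domains related to secreted phospholipase A2. Vmo1 encodes a small secreted protein named after the outer layer of the hen's vitelline membrane. Dpp10 encodes a membrane protein of the dipeptidyl peptidase 4 family that lacks peptidase activity and serves as an accessory subunit of Kv4 potassium channels.

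In GENCODE M21 on GRCm38 all 5 are protein-coding genes on the minus strand. Lrp2 (ENSMUSG00000027070) lies at chr2:69424340-69586065, Crhbp (ENSMUSG00000021680) at chr13:95431371-95444924 and Oc90 (ENSMUSG00000015001) at chr15:65876053-65912397. Vmo1 (ENSMUSG00000020830) lies at chr11:70513516-70514616 and Dpp10 (ENSMUSG00000036815) at chr1:123321471-124045559. Vmo1 spans 1.101 kb and Dpp10 724 kb. The annotation places 10 other gene models over Dpp10 and none over the other 4 members, and none of those 10 is counted in the matrices.

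RefSeq promoter sequence on GRCm38.p6 was matched for 4 of the 5 members. The stretches upstream of Vmo1, Lrp2 and Crhbp are shown because, by class, these genes had their highest levels in the same small class of cells. Lrp2 was higher still in 10 cells of library 2 described below, which are not a class. Each is on the minus strand and ends just before the first base that RefSeq or GENCODE transcribes, and capitals mark a searched motif.
Vmo1, chr11:70514617-70514866: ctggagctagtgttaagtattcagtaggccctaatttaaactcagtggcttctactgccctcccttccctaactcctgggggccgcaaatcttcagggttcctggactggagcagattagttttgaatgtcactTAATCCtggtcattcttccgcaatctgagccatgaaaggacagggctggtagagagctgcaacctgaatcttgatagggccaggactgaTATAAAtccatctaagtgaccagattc
Lrp2, chr2:69586066-69586279: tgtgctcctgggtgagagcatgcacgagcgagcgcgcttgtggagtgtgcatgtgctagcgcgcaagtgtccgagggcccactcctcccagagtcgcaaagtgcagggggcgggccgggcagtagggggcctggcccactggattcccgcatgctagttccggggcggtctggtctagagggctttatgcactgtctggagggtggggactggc
Crhbp, chr13:95444925-95445081: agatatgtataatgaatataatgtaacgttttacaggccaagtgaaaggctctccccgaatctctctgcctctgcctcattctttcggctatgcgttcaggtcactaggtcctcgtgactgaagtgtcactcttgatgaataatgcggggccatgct

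The printed sequences differ in composition. The Lrp2 stretch is 65.9% G or C and holds 13 CpG dinucleotides in 214 bases, while the Vmo1 stretch is 47.6% G or C and holds 2 in 250 bases. The Crhbp stretch is 45.9% G or C with 6 CpG dinucleotides in 157 bases. Whole RefSeq windows, 250 bases before to 50 after each start, were searched on both strands for 8 motifs. These were AGATAA for GATA factors (in 11.2% of all windows), ACAAAG for SOX factors (18.7%), GTTAAT as a partial HNF1 site (7.13%) and GCCNNNGGC for TFAP2 factors (16.7%). The others were GGAATG for TEAD factors (14.6%), TATAAA as a TATA box (13.6%), AACCGG for GRHL factors (6.87%) and TAATCC for OTX factors (7.06%). The Vmo1 window held TATAAA beginning 27 bases before the start and TAATCC beginning 116 bases before it. All windows numbered 32544. The Lrp2 window held GCCNNNGGC beginning 18 bases before the RefSeq start, and the Crhbp window held TATAAA at base 31 after it. Both of these lie past the printed stretches, and no motif was found in all 3 windows. None of the motif hits overlapped another.

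The class with the highest summed level of the members held 16 cells of library 1 and 14 of library 2. Of 5 Reissner membrane markers, 4 were higher in it than in the remaining cells, and it was therefore called Reissner membrane-like. These were the anion transporter gene Slc26a7 (536 CPM in library 1 and 717 CPM in library 2), the homeobox gene Otx2 (143 and 214 CPM), Wnt4 (78.7 and 113 CPM) and Meis2 (73.8 and 75.5 CPM). The fifth, Itih5, was at 49.2 and 25.2 CPM. Of 13 general otic epithelium markers, 9 were higher, among them Epcam at 447 and 554 CPM. Of 7 stria marginal markers, 3 were higher as well, among them Kcnq1 and Atp1b2, with a summed level of all 7 of 516 and 730 CPM. The defining marginal genes Esrrb and Bsnd had no UMI there, and Kcne1 had 1. Of 8 hair cell markers, Otof, Pou4f3, Slc26a5, Myo15 and Tmc1 had no UMI, and all 8 summed to 19.7 CPM in library 1 and 0 in library 2.

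Other RNA was also present in these cells. The 6 erythroid markers summed to 25723 CPM in library 1 and 1988 CPM in library 2. In library 1, 2 of the 16 cells had 58205 and 53851 UMIs, while the next had 12524 and the median was 5818. In library 2 the highest had 8146 UMIs. The part of erythroid RNA in the members' levels was not tested. Without the 2 deep cells the mean class level over both libraries was 1834 CPM for Lrp2 in place of 1706, 995 for Crhbp in place of 1026, 18763 for Vmo1 in place of 16386 and 93.9 for Oc90 in place of 57.9.

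Vmo1 was the most abundant member and marked these cells most sharply. In library 1 it ran from 76 to 1020 UMIs per cell with a median of 135 over all 16 Reissner membrane-like cells. In library 2 it ran from 0 to 130 UMIs with a median of 84.5 over 14 cells. Of all 1975 barcodes, 16 in library 1 and 13 in library 2 had 10 or more Vmo1 UMIs, and every one of these 29 was in the Reissner membrane-like class. The lowest of them had 76 UMIs in library 1 and 40 in library 2. No other barcode of either library exceeded 4 UMIs, so the high and low cells did not overlap. The class level was 19045 CPM (18450 to 19654) in library 1 and 13727 CPM (12924 to 14566) in library 2.

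Low Vmo1 counts were found in every class with at least 10 cells in a library. At least 1 UMI was found in 486 of 1331 barcodes of library 1 (36.5%) and in 106 of 644 of library 2 (16.5%). Erythroid-like cells, taken as cells that should lack it, showed it in 38.8% of 410 cells in library 1 and 30.8% of 39 cells in library 2, at median depths of 10689 and 12729 UMIs. The shares over all barcodes are thus at or below this background and are not read as expression. Across the 16 other classes with at least 10 cells in library 1, Vmo1 lay between 19.0 and 44.6 CPM, and across 10 such classes in library 2 between 9.62 and 28.0 CPM. Erythroid-like cells were highest among them in both libraries. The Reissner membrane-like level was 427 times the highest other class in library 1 and 491 times in library 2.

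**Figure D1:**
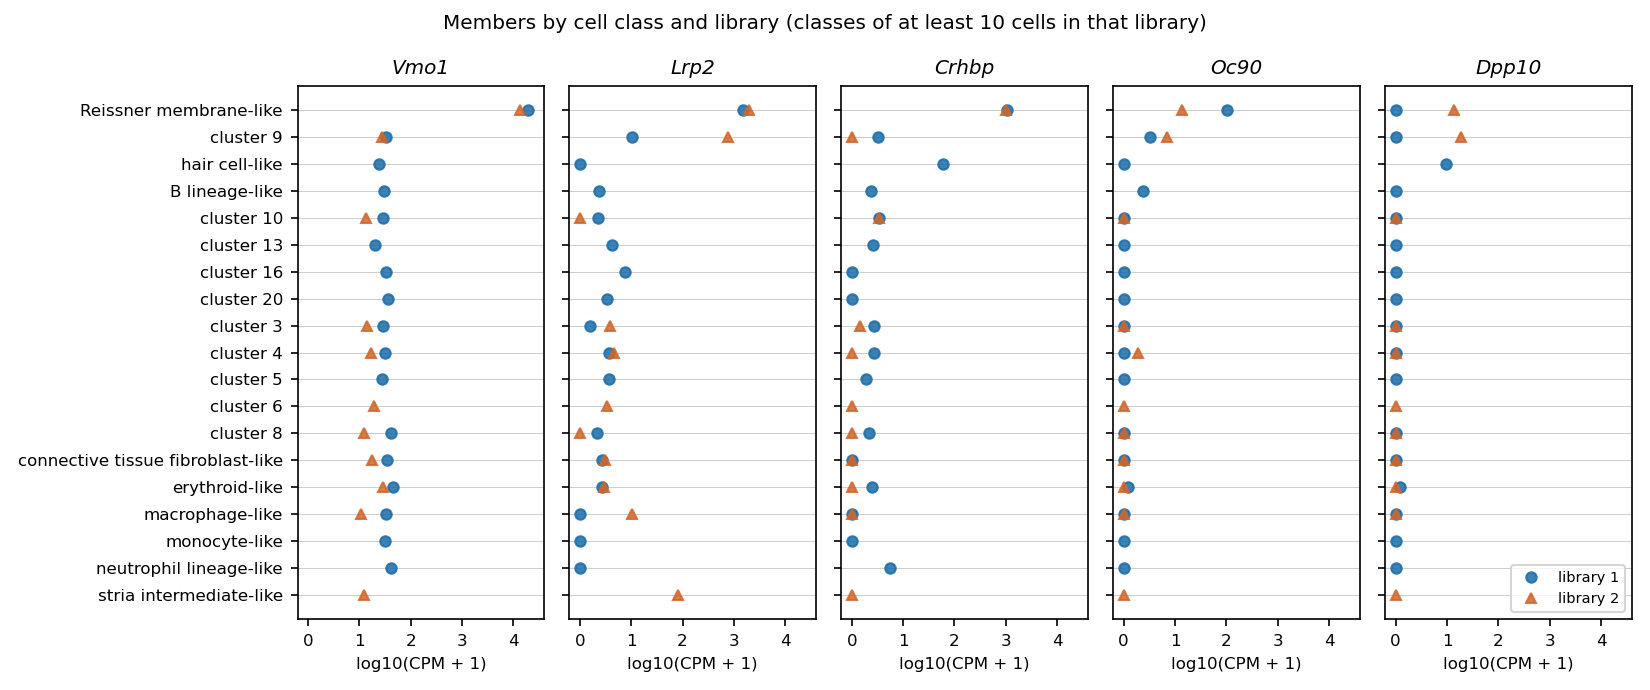
Level of each member, as log10(CPM + 1), in every class with at least 10 cells in that library, with library 1 as circles and library 2 as triangles. Vmo1 lies between 9.62 and 44.6 CPM outside Reissner membrane-like cells, Lrp2 has a further high point in cluster 9 of library 2, and Crhbp has one in hair cell-like cells.

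Lrp2, the receptor of the set, was found in all 30 Reissner membrane-like cells. In library 1 it ran from 3 to 92 UMIs per cell with a median of 11, and in library 2 from 1 to 22 with a median of 10.5. The class level was 1475 CPM (1313 to 1652) in library 1 and 1938 CPM (1644 to 2269) in library 2. In library 1 the next class, cluster 9, was at 9.2 CPM, and 88.8% of the 338 Lrp2 UMIs in classes were in Reissner membrane-like cells. In library 2 cluster 9 was at 774 CPM, and 35.4% of the 435 UMIs in classes were in Reissner membrane-like cells, with 1 more in a doublet. The libraries thus differed in where Lrp2 was found, and pooling them gave 58.7%.

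Cluster 9 was an unnamed epithelial cluster of 35 and 45 cells led by Ucma, Frzb and Epyc, with 8 of 13 otic epithelium markers higher. It had outer sulcus and stria marginal markers side by side, 4 of 6 and 4 of 7. In library 2, 10 barcodes had 3 or more UMIs of Kcne1, the potassium channel subunit of marginal cells. Of these, 9 were in cluster 9 and 1 in stria intermediate-like cells. In order of falling Kcne1, from 35 to 6 UMIs, their Lrp2 counts were 34, 60, 88, 8, 16, 0, 34, 1, 0 and 7. The 8 positive cells held 248 of the Lrp2 UMIs of library 2, a level of 3565 CPM over all 10 cells. Crhbp, Oc90, Vmo1 and Dpp10 had no UMI in any of them. The remaining 36 cells of cluster 9 in library 2 held 17 Lrp2 UMIs, or 62.5 CPM. Library 1 had no Kcne1 UMI in any kept barcode, so this second group of Lrp2 cells rested on library 2 alone.

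The mitochondrial limit ran through that group. The kept Kcne1 cells had mitochondrial shares of up to 19.6%, with a median of 7.39% against 3.1% over library 2. Above the limit, at 20.2% to 47.8%, 7 removed barcodes of library 2 held 143 further Lrp2 UMIs, and all 7 also had 4 or more Kcne1 UMIs. None of them had a Vmo1 UMI.

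**Figure D2:**
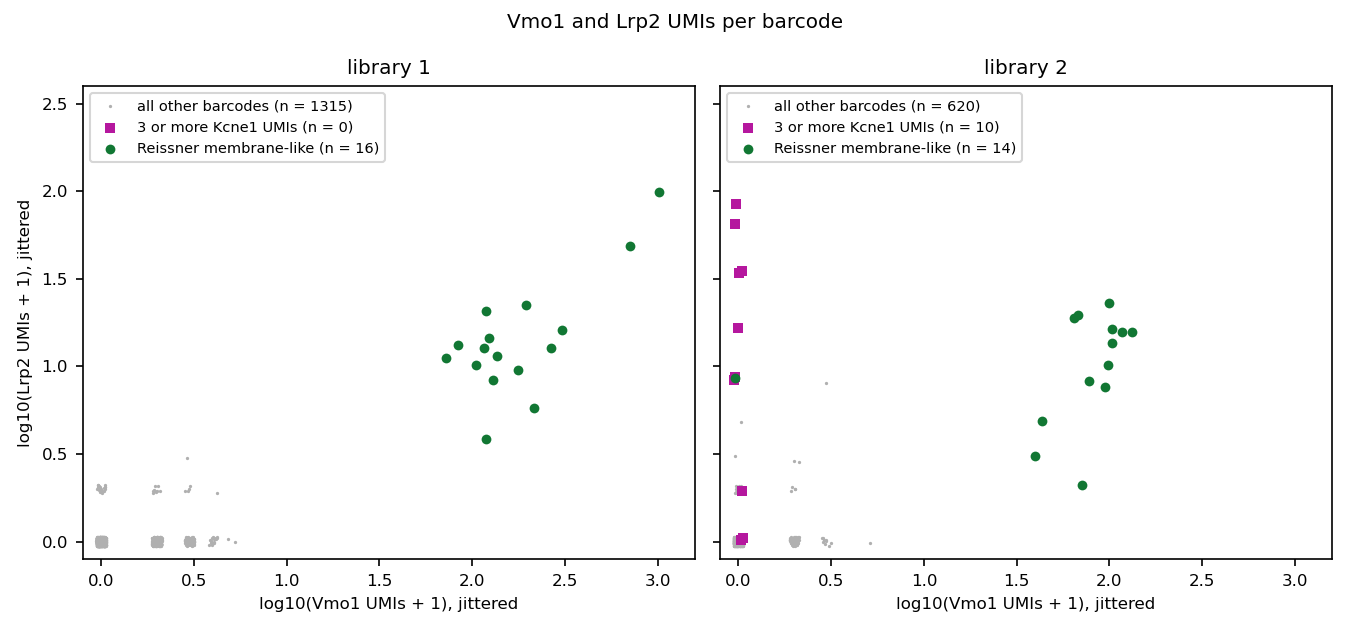
Lrp2 against Vmo1 UMIs of every kept barcode, each as log10(UMIs + 1) with a small jitter, by library. Reissner membrane-like cells (16 and 14, circles) have both genes except 1 cell without Vmo1, and the 10 barcodes with 3 or more Kcne1 UMIs (squares, library 2) have no Vmo1 UMI.

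Crhbp had the same class level in both libraries within counting error, 1057 CPM (921 to 1208) in library 1 and 994 CPM (787 to 1239) in library 2. It was less even among cells than Vmo1 or Lrp2. In library 1 it ran from 0 to 66 UMIs with a median of 5 and was found in 13 of 16 cells. In library 2 it ran from 0 to 20 UMIs with a median of 1 and was found in 7 of 14 cells. Per 10000 UMIs of a cell, the coefficient of variation of Crhbp was 1.31 in library 1 and 1.46 in library 2, where counting alone would give 0.372 and 0.433. For Vmo1 it was 0.403 and 0.372, with 0.0876 and 0.116 from counting alone. For Lrp2 it was 0.375 and 0.551, with 0.315 and 0.31 from counting alone. Vmo1 and Crhbp thus varied several times more than counting gives in both libraries, and Lrp2 less so. Cells with much Crhbp and cells with none therefore stood side by side in the class, all with Lrp2 and all but 1 with Vmo1. With every cell thinned to 3000 UMIs, Crhbp was still found in 12 of 16 and 6 of 14 cells.

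**Figure D3:**
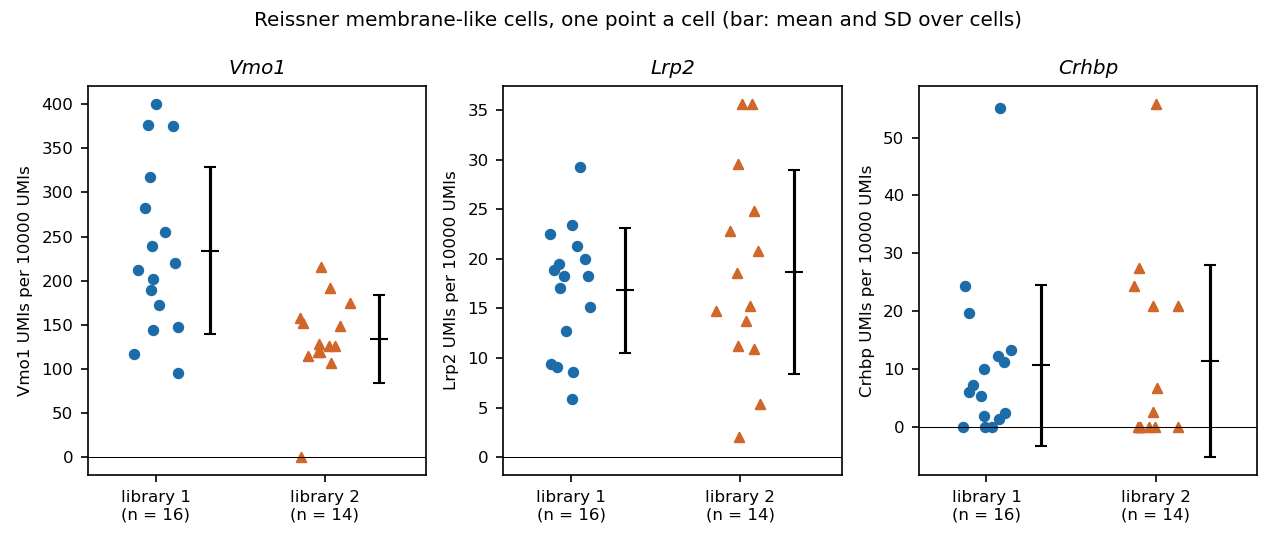
Vmo1, Lrp2 and Crhbp in single Reissner membrane-like cells, as UMIs per 10000 UMIs of the cell, by library, with the mean and SD over cells as a bar. Crhbp is at 0 in 3 of 16 and 7 of 14 cells and reaches 55.1 and 55.9 in the highest cell of each library.

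Outside Reissner membrane-like cells, Crhbp was found mainly in hair cell-like cells, which are sensory. In library 1, 32 of 50 hair cell-like cells (64.0%, interval 49.2% to 77.1%) had 47 UMIs, a level of 58.0 CPM (42.6 to 77.2). The next class, neutrophil lineage-like cells, was at 4.49 CPM, and erythroid-like cells had the gene in 1.71% of 410 cells. Median depths were 14233 UMIs in hair cell-like and 10689 in erythroid-like cells. At 3000 UMIs per cell, 22% of hair cell-like and 0.244% of erythroid-like cells had it. In library 2 none of the 4 hair cell-like cells had a Crhbp UMI, which at this depth allows up to 83.3 CPM. Hair cell-like cells thus held 16.5% of the Crhbp UMIs of library 1, and the label of a non-sensory epithelium gene does not cover them.

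Within hair cell-like cells of library 1, Crhbp was compared with Ocm, the oncomodulin gene of outer hair cells, a choice made after values were seen. Of 11 cells with 10 or more Ocm UMIs, 4 had Crhbp, with 4 UMIs in all or 24.6 CPM (6.7 to 63.0). Of 39 cells below that, 28 had Crhbp, with 43 UMIs in all or 66.4 CPM (48.1 to 89.5). The intervals of the levels overlapped. Median depths were close, 13496 and 14506 UMIs. Slc17a8, the vesicular glutamate transporter gene of inner hair cells, was at 959 and 1208 CPM in these groups, and all 16 UMIs of Slc26a5, the prestin gene, were in the first.

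**Figure D4:**
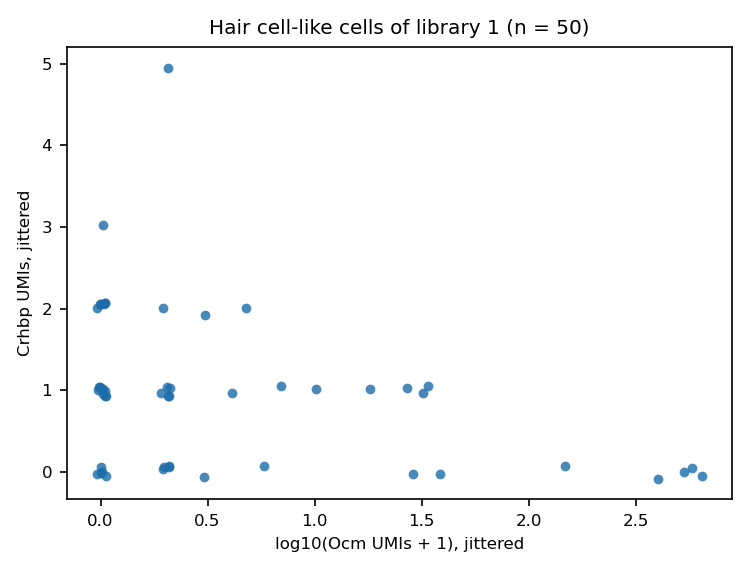
Crhbp UMIs against log10(Ocm UMIs + 1) in the 50 hair cell-like cells of library 1, with a small jitter, each point a cell. The 32 cells with Crhbp sum to 139 Ocm UMIs and the 18 cells without it to 2385. Only 11 cells have 10 or more Ocm UMIs, from 17 to 636 each, and 4 of these have Crhbp.

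Oc90 was rare, with 24 UMIs in 11 cells of library 1 and 4 UMIs in 3 cells of library 2. Of these, 21 UMIs in 8 cells and 1 UMI in 1 cell were in Reissner membrane-like cells. The class level was 103 CPM (63.9 to 158) in library 1 and 12.6 CPM (0.319 to 70.1) in library 2. The highest cell had 7 UMIs. Of the 16 other classes in library 1, 13 had no Oc90 UMI, and cluster 9 followed at 2.3 CPM. In library 2 cluster 9 had 2 UMIs (6 CPM), within the interval of the class level, so no order of the 2 classes can be given there.

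Dpp10 did not follow the other members. Its 17 UMIs lay in 12 cells, and only 1 UMI, in library 2, was in a Reissner membrane-like cell. That cell had 8 Lrp2 UMIs and was the only one of the class without Vmo1. In library 1, 7 of 10 UMIs were in 6 hair cell-like cells (8.64 CPM, 3.48 to 17.8), 2 in spiral ganglion neuron-like cells and 1 in an erythroid-like cell. In library 2 the other 6 UMIs were in 2 cells of cluster 9 with 7 and 4 Lrp2 UMIs and no Kcne1. The 16 Reissner membrane-like cells of library 1 had none, which allows up to 14.8 CPM. That limit lies above the 8.64 CPM of hair cell-like cells, so library 1 gives no order of these 2 classes. The label of a non-sensory epithelium gene does not cover the hair cell-like cells of library 1. In library 2 all 7 UMIs were in cluster 9 and Reissner membrane-like cells.

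No barcode had all 5 members. In library 1, 7 cells had 4 members and 7 had 3, and all 14 were Reissner membrane-like. In library 2, 9 cells had 3 members, 8 of them Reissner membrane-like, and none had more. Lrp2 and Crhbp were found together in 13 cells of library 1 and 7 of library 2, and all 20 were Reissner membrane-like. These were 20.6% of all 97 cells with Lrp2 and 26.0% of all 77 with Crhbp. By library they were 24.5% and 15.9% of the Lrp2 cells and 19.1% and 77.8% of the Crhbp cells. With at least 2 UMIs of each required, the pooled shares were 40.5% and 58.6%. At 3000 UMIs per cell they were 31.0% and 52.9%. Of the 51 cells with both Lrp2 and Vmo1, 29 were Reissner membrane-like. With at least 2 UMIs of each required, it was 28 of 30. Of 14 cells with Oc90, 10 had Lrp2 and 12 had Vmo1. Of 12 cells with Dpp10, 3 had Lrp2 and 3 had Crhbp.

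The ratios of the members' low counts elsewhere were set beside those in the class. Outside Reissner membrane-like, hair cell-like and stria intermediate-like cells and cluster 9, library 1 held 583 Vmo1 UMIs in 1226 cells. For every 100 of them there were 5.83 Lrp2 UMIs (4.04 to 8.15) and 3.6 Crhbp UMIs (2.23 to 5.51). Within the class the same ratios were 7.75 for Lrp2, inside that interval, and 5.55 for Crhbp, just above it. In library 2 there were 16.8 Lrp2 UMIs (9.63 to 27.4) per 100 Vmo1 UMIs elsewhere and 14.1 in the class, and 2.11 Crhbp UMIs (0.255 to 7.6) elsewhere and 7.24 in the class.

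The genes whose levels most resembled a member were ranked by Pearson's r of log2(CPM + 10) over 18 sums, 9 classes in each of 2 libraries. These sums share libraries and classes, so r is a description. For Vmo1 they were Slc26a7 (r = 0.991), Crhbp (0.989), E330013P04Rik (0.986), Ttr (0.986) and Clstn3 (0.986). For Crhbp they were E330013P04Rik (0.996), Cndp1 (0.996), Slc26a7 (0.996), Pcdh20 (0.991) and Slc6a15 (0.989). For Lrp2 they were Mall (0.98), Lmx1a (0.977), Rgs4 (0.97), Krt18 (0.967) and Tbx3os1 (0.966). The r between Lrp2 and Vmo1 was 0.828, below that of Crhbp and Vmo1. Oc90, with 27 UMIs in these sums, was closest to Stard13, Sostdc1, Scnn1b, Ppp2r2b and Abhd2, with r from 0.904 down to 0.889. Dpp10 had 8 UMIs there and was closest to Kif19a, Kcnq1, Cldn4, Dnase1 and Kcne1, with r from 0.938 down to 0.844.

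Reissner membrane-like cells were then compared with other classes in genes that played no part in forming the clusters. UMIs were summed per class and library and tested with edgeR's quasi-likelihood test with the library as a block, and p-values were adjusted by Benjamini-Hochberg over 5036 genes. The other classes were 8, clusters 3, 4, 8, 9 and 10 and connective tissue fibroblast-like, erythroid-like and macrophage-like cells. Of these only cluster 9 was epithelial. Hair cell-like cells and clusters 13, 16 and 20 had 3, 7, 9 and 5 of 13 otic epithelium markers higher. With 4, 7, 6 and 0 cells in library 2 they were in neither comparison, so genes called below may be as high there. Against the mean of the 8 classes, 536 genes (10.6%) were higher at an adjusted p under 0.05 and 276 (5.48%) were lower, 16.1% in all. Against cluster 9 alone, 180 (3.57%) were higher and 243 (4.83%) were lower, 8.40% in all. With median-ratio scaling the counts against cluster 9 were 228 and 198, so that 53.5% of its calls were higher in place of 42.6%. DESeq2 gave 166 and 131 there, 55.9% higher, and 631 and 172 against the 8 classes, 78.6% higher in place of 66.0%. That scaling moved the median log2 change of all genes against the 8 classes from -0.10 to 0.07. The changes below are those of the first fit, and are to be read against its median of -0.10. They compare log levels averaged over classes, so a class with a very high level counts for less than in a mean of CPM. Without the 2 deep cells, 119 genes were higher than in cluster 9.

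The largest increases over the other classes included Cndp1, which encodes a carnosine-cleaving dipeptidase. It was at 308 ± 66.3 CPM on the scale of the fit (SD, n = 2 libraries) against a mean of 0.096 CPM, a log2 change of 10.44 (SE 0.45, edgeR adjusted p = 7.17e-35). That mean rests on 2 UMIs over the 8 classes, so the size of the change is uncertain. The LIM-homeodomain gene Lmx1a was at 199 ± 30.3 CPM against 3.3 CPM, a log2 change of 8.13 (SE 0.49, edgeR adjusted p = 4.14e-20). Rab27b, a small GTPase of vesicle secretion, was at 283 ± 56.6 CPM against 7.07 CPM. Bbox1, an enzyme of carnitine synthesis, and Slco1a5, an organic anion transporter, were higher by 7.89 and 7.55 on the log2 scale. They had 3 and 16 UMIs in the 8 classes. The others of the 10 largest were E330013P04Rik, Tm4sf5, Lgi1, Tbx3os1 and Cwh43, and each was higher in both libraries. DESeq2 did not call Cndp1, E330013P04Rik, Tm4sf5, Lgi1, Cwh43 or Slco1a5, at log2 changes of 7.10 to 9.72. Tbx3os1 is antisense to Tbx3, and the sources used here do not say whether counting used strand.

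The 10 largest decreases by fitted log2 change were all genes with no UMI in Reissner membrane-like cells. Their size is given as a bound against 3 counts over both libraries. Their rank rests on the fit at 0 counts, and genes with counts may be lower by more than these bounds. Epha3, an ephrin receptor gene, was at least 9.54-fold lower than the mean of the other classes, and Hs3st1, a heparan sulfate sulfotransferase gene, at least 7.95-fold lower. The bounds of Nt5dc2, Lhfp, Chst1, Etv1, Ptgr1, Gmds, Ripk1 and Speg ran from 2.8 to 9.44-fold. Against cluster 9 the 10 largest by fitted change also had no UMI in the class. Hs3st1 had the largest bound of them, at least 29.8-fold lower. Phyhipl, Wscd2, 9530077C05Rik, Fbln7, Asgr1, Rnd3, Homer2, Degs2 and the carbonic anhydrase gene Car12 followed at 5.78 to 18.8-fold. Car12 was at 20.7 CPM in cluster 9 of library 1 and 147 CPM in that of library 2, where 7 of the Kcne1 cells held 40 UMIs. Without the Kcne1 cells its edgeR adjusted p was 0.0243 in place of 0.00059.

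Several genes were found in Reissner membrane-like cells and had no UMI in cluster 9. Cndp1 was at least 91.8-fold higher there, the membrane protease gene Fap at least 28.7-fold, and Lgi1 at least 23.7-fold. Sostdc1, an antagonist of BMP and Wnt signalling, was at least 20.7-fold higher, with 35 UMIs in library 1 and 1 in library 2. Col25a1, Cntnap2, Cwh43 and Bmp5 had bounds from 9.08 to 16.3-fold. Dapl1 was higher by 9.01 on the log2 scale (SE 0.71, edgeR adjusted p = 5.45e-11). It had 1 UMI in cluster 9, so the size of its change is uncertain. DESeq2 did not call Cndp1, Lgi1, Sostdc1, Cwh43 or, among those lower, Degs2.

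Genes around each member's function were read from lists. These lists were chosen with earlier results known, and the percentages called above are the background. Among the low density lipoprotein receptor family, the relatives of Lrp2, 12 of 15 genes were tested, with a median log2 change of -0.01. Lrp3 and Ldlrad4 had no UMI in the class. With these set to no change, since no fold can be given, the median was 0.02. Sorl1 was higher than in the other classes (209 ± 36.1 CPM, log2 change 4.90, edgeR adjusted p = 1.57e-23) and Lrp1 was lower (19.6 ± 6.56 CPM, log2 change -2.28, edgeR adjusted p = 0.000187). Against cluster 9 only Vldlr passed, with a log2 change of -3.50. Lrp10, Lrp6, Lrp5 and Ldlrad3, the next by level at 77.4, 68.1, 27.7 and 25.2 CPM, did not pass in either comparison.

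Of 17 tested partners and adaptors of megalin, 3 were higher and 2 lower than in the other classes, with a median of 0.02. Lrpap1 encodes the chaperone that keeps ligands off the receptor during its synthesis. It had 135 and 84 UMIs in the class, or 591 ± 123 CPM in the fit, with a log2 change of 2.26 (SE 0.25, edgeR adjusted p = 3.13e-09). Without scaling it was at 664 and 1057 CPM in Reissner membrane-like cells and at 2243 CPM in the Kcne1 cells of library 2. Slc9a3r1, a scaffold at apical membranes, was higher by 1.72. Dab2, the adaptor that binds megalin's tail, had a log2 change of 1.48 (edgeR adjusted p = 0.000751) against the mean of the classes' log levels. Its 89.3 CPM lay below their mean of 108 CPM, and macrophage-like cells were highest in both libraries, at 769 and 693 CPM without scaling. The change was 0.86 without the 2 deep cells (edgeR adjusted p = 0.211) and the library 2 difference was -0.26. Pid1 and Mesdc2 were lower, with log2 changes of -2.38 and -1.52. The call for Mesdc2, the receptor family's folding chaperone, was lost with median-ratio scaling (edgeR adjusted p = 0.060). Cubn, the partner receptor cubilin, had no UMI in Reissner membrane-like or Kcne1 cells, which allows up to 14.8 and 37.7 CPM in the 2 libraries of the former and 43.1 CPM in the latter. It had 25 UMIs in hair cell-like cells of library 1. Against cluster 9, Dab2, Pid1 and the clathrin heavy chain gene Cltc were higher, and the calls of Pid1 and Cltc were lost without the 2 deep cells. The log2 change of Pid1 was then 1.60 in place of 2.09 (edgeR adjusted p = 0.289), and that of Cltc 0.93 in place of 1.07 (edgeR adjusted p = 0.137).

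Of 19 genes of secreted proteins that megalin can bind, 10 were tested, 3 higher and 2 lower than in the other classes with a median of 0.41. Ttr, the thyroxine carrier transthyretin, was higher by 7.41 (SE 0.30, edgeR adjusted p = 1.06e-38), with 129 and 36 UMIs in the class. Those UMIs came from 6 of 16 and 4 of 14 cells. Clu, or clusterin, was the most abundant at 1745 ± 983 CPM and higher by 0.82 (edgeR adjusted p = 0.0199). The metallothionein gene Mt2 was higher by 2.40 (edgeR adjusted p = 0.0497). Without the library block both calls were lost, at edgeR adjusted p = 0.0555 for Clu and 0.069 for Mt2. Apoe and Pltp were lower, with log2 changes of -2.89 and -2.41. Mt1, Cst3 and B2m, at 826, 811 and 517 CPM, did not pass. Against cluster 9, Ttr alone passed.

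The hormone system that Crhbp belongs to was mostly not detected. Crh, Ucn, Ucn3 and Crhr2 had no UMI in the kept barcodes of either library, and Ucn2 had 1 in each. Crhr1, the main receptor gene, had 256 and 43 UMIs in all. None was in Reissner membrane-like cells, and it was at least 4.42-fold lower there than in cluster 9 (edgeR adjusted p = 0.006). None of the 4 tested genes of 12 passed against the other classes. Crhr1 and Hsd11b1 had no UMI in the class, and with these at 0 change, since no fold can be given, the list's median was 0 in place of a fitted -1.90.

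Of 20 genes tied to otoconia, the setting of Oc90, 7 were tested, 3 higher and 1 lower than in the other classes, with a median of 0.19. The calcium pump gene Atp2b2 was higher by 6.44 (SE 0.60, edgeR adjusted p = 2.13e-15), at 103 ± 60.5 CPM, and was the only one higher than in cluster 9. Atp2b1 and Noxo1, the organizer of an oxidase needed for otoconia, were higher by 0.93 and 2.86, and Cyba was lower, with a log2 change of -1.02. The Atp2b2 call against cluster 9 was lost with DESeq2 (DESeq2 adjusted p = 0.0537). Otol1, the otoconial collagen otolin, had no UMI in Reissner membrane-like cells. In library 1 it was highest in the unnamed cluster 13, at 330 CPM, and was at 65.4 CPM in hair cell-like cells. Sparc, at 944 ± 604 CPM, and Spp1 did not pass. Of the phospholipase A2 list, which also holds Prdx6 and the receptor gene Pla2r1, 4 of 12 genes were tested. Pla2g5, Pla2g12a and the receptor Pla2r1 were higher, by 4.76, 1.55 and 3.98, and Prdx6 was lower, with a log2 change of -0.96 and a DESeq2 adjusted p of 0.095. The list's median was 2.76. Against cluster 9 only Pla2r1 was higher, and Prdx6 and Pla2g12a were lower. With DESeq2 the calls of Pla2r1 and Pla2g12a against cluster 9 were lost (DESeq2 adjusted p = 0.0744 and 0.349).

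For Dpp10, a peptidase list and the channel were read separately. The peptidase list, labelled DPP4 family, holds dipeptidyl peptidases that are not all relatives of Dpp4. Of its 6 tested genes, Dpp4 and Fap were higher than in the other classes, by 5.77 and 7.02. Both were also higher than in cluster 9, and the list's median was 0.22. Of the 12 Kv4 channel genes only Kcnip3 was tested, and it did not pass (edgeR adjusted p = 0.104). Kcnd2 and Dpp6 had no UMI and Kcnd3 had 2 UMIs in hair cell-like cells of library 1, where most Dpp10 UMIs of that library were.

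The tear film and surface protein list stood for Vmo1, which is also found in tears. Both tested genes of 12 were higher than in the other classes. Wfdc2, a secreted protein with a protease inhibitor fold, was at 824 ± 161 CPM and higher by 5.04 (SE 0.20, edgeR adjusted p = 6.98e-39), and the mucin gene Muc15 was higher by 3.66. Neither passed against cluster 9. There Wfdc2 had a log2 change of 0.49, while Muc15, at 27.1 CPM against 81.3 CPM in cluster 9, had one of -1.65 (edgeR adjusted p = 0.0559).

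Of 10 tested apical transport genes, 6 were higher than in the other classes and 1 was lower, with a median of 1.5. The epithelial sodium channel subunits Scnn1a and Scnn1b were higher by 7.53 and 6.86, and also higher than in cluster 9, where Scnn1a had no UMI (at least 19.8-fold). Slc4a2, an anion exchanger, was higher by 1.77 and by 2.25 against cluster 9. Atp1b1, a sodium pump subunit, had a log2 change of 1.05 against the mean of the 8 classes' log levels, although its 299 CPM lay below their mean of 464 CPM. It was lower than in cluster 9, with a log2 change of -2.12 (edgeR adjusted p = 3.75e-07). Slc9a2 was higher by 2.93 and Car2 was lower, with a log2 change of -2.84. The erythroid-like class had the highest Car2 level in both libraries.

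Against cluster 9 the median log2 change was -0.09 over all tested genes. It was 0.25 for the low density lipoprotein receptor family, -0.32 for megalin partners, 1.27 for secreted ligands and 0.56 for the hormone system. For otoconia genes it was 0.29, for the phospholipase A2 list -0.67, for the dipeptidyl peptidase list 0.50, for tear film genes -0.58 and for apical transport 0.26. Cluster 9 was also 1 of the 8 classes, and both comparisons rest on the same 30 Reissner membrane-like cells.

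**Figure D5:**
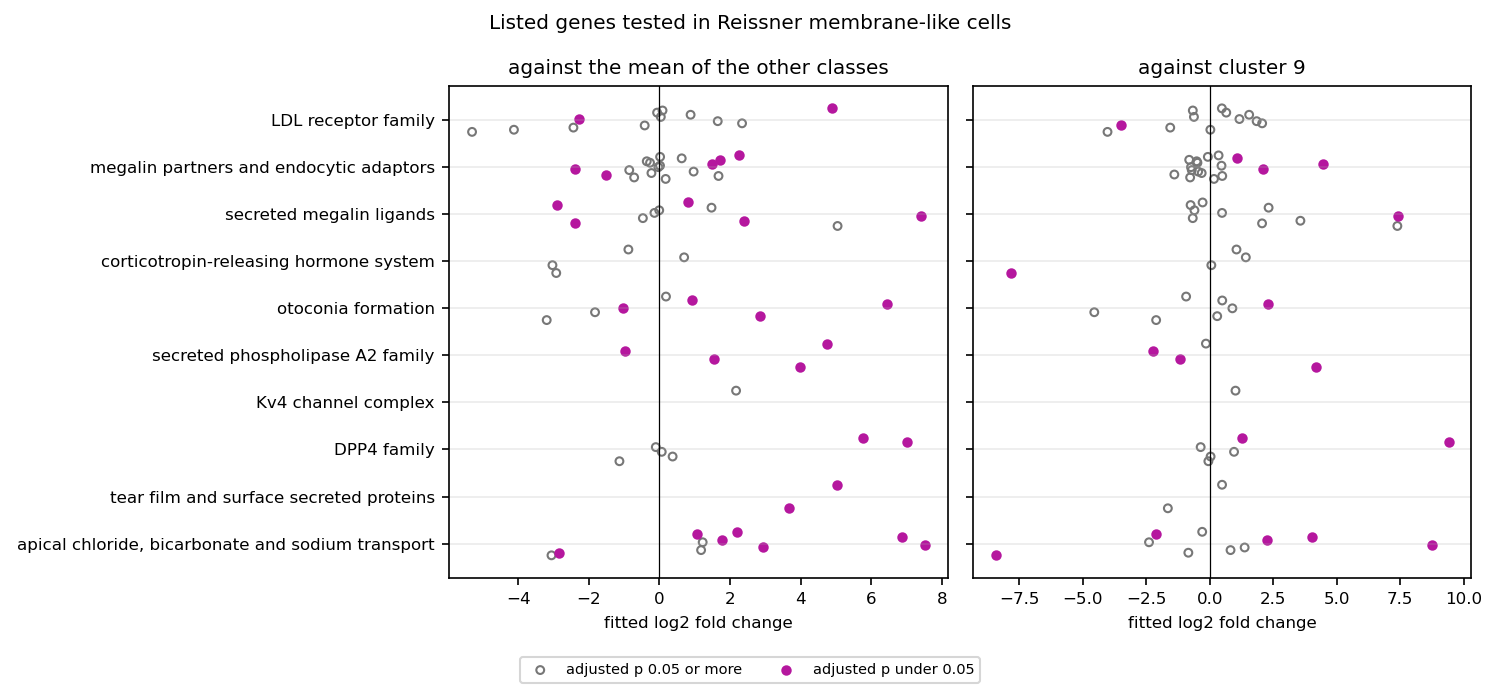
Fitted log2 change of each listed gene that was tested, in Reissner membrane-like cells against the mean of the other 8 classes (left) and against cluster 9 (right), each point a gene, filled where the adjusted p was under 0.05. In the apical transport list 6 of 10 genes are higher on the left and 3 on the right, and the corticotropin-releasing hormone list has no call on the left.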

How the data were processed

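Per the submitters' processing notes, the data were processed with Cell Ranger 2.1.0 and the mm10 build, and the deposited values are raw UMI counts per gene and barcode. The roles of these in the processing, and whether strand was used, are not given in the sources used here.

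The members, gene lists and tests were chosen with earlier results of these data known. Barcodes of 300 or more genes and no more than 20% mitochondrial UMIs were kept. Scrublet marked 2 and 4 doublets, which were left out of classes. Clustering (scanpy 1.11.5, 30 principal components, 15 neighbours, Leiden resolution 1, 2021 genes) left out the members, the listed genes and the genes held out for testing, and gave 23 clusters. Of 26 marker lists, a cluster took the name of one with at least 3 and at least 50% of its markers higher by a log2 fold of 1, leading the next list by 30 points, with a marker among its 10 leading genes. These naming limits were set after the clusters were seen.

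Counts per class and library were summed and tested with edgeR 4.0.16 (TMM, minimum count 10, library as block) over the 9 classes of 10 or more cells per library. The 2 libraries give 18 sums of 79480 to 4801687 UMIs, and the residual degrees of freedom were 8. The block is used because the classes of a library come from 1 suspension. The p-values rest on how differences between classes varied between the 2 libraries, pooled over all 9 classes. The dispersion also drew on all genes, with a median of 82 prior degrees of freedom. Spread between animals may not be covered, since nothing says that the libraries came from separate mice. DESeq2 1.42.0 was an alternative. The method was also run on simulated counts in which all classes shared the same levels and a common dispersion, apart from some changed genes. The real classes differ in far more genes, so that run gives no error rate for these data.

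Named are the members, up to 5 genes of each list by level, the 5 genes most like each member, and the 10 largest changes each way that had the same sign in both libraries. Other listed genes that passed were named after values were seen. Listed genes that are also markers were not tested. Some listed genes are not reported here by name.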

Additional observations from a re-analysis of the deposited data

Results flagged for a closer look

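Members were also found in barcodes that the filter removed and that no comparison used, above what a count of 0 allows. In library 2 the 76 removed barcodes held 143 Lrp2 UMIs, all in 7 barcodes with more than 20% mitochondrial UMIs and with Kcne1. The removed barcodes of library 1 held 26 Vmo1 UMIs, at most 2 in a barcode and 15.3 CPM over 279 barcodes, and those of library 2 held 5 Vmo1 UMIs, 1 in each of 5 barcodes.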

How the results depend on the processing

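Where the members' UMIs lay depended on the library and on the barcode filter. Leaving out a replicate gave a Reissner membrane-like share of 35.4% to 88.8% for Lrp2 (58.7% over both), 75.7% to 97.5% for Crhbp (80.5%), 25% to 87.5% for Oc90 (78.6%), 86.3% to 91.2% for Vmo1 (87.3%) and 0 to 14.3% for Dpp10 (5.88%). With a filter of 500 genes and 10% mitochondrial UMIs the class holding the members no longer met the naming rule, and its share was 90.7% for Lrp2 and 53.8% for Dpp10. It held 50 cells, 35 of them in library 2, and 28 of the 50 were among the 30 Reissner membrane-like cells. With no mitochondrial limit, an alternative chosen after seeing the data, the Lrp2 share was 49.6%. Higher clustering resolution, kept doublets and clustering on all variable genes each returned the same 30 cells. Shares of cells with 2 members together were less stable. With 2 UMIs required, cells thinned, or a replicate left out, 32 of these shares left the exact interval of the first setting and 48 stayed inside.

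DESeq2 called 172 genes lower than in the other classes (276 with edgeR) and 131 lower than in cluster 9 (243). It lost the calls of 11 gene comparisons among the 40 largest. The cause was not tested. Without the 2 deep cells, also chosen after seeing the data, 119 genes were higher than in cluster 9 (180). Without the Kcne1 cells, chosen likewise, 208 were. Without the replicate block, 499 genes were higher and 236 lower than in the other classes, and 152 and 194 against cluster 9. None of the 40 largest changes reversed, but these had been chosen for the same sign in both libraries. Listed genes could differ in sign between libraries. Dab2 did so against the other classes, with -0.26 in library 2 and 1.48 in the fit. With 1 library the fit has no residual degrees of freedom, so replicates left out gave only log2 changes. Oc90 and Dpp10, at 28 and 17 UMIs, are limited by depth.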
